A study of Mus musculus with 12 samples.

Results

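The regions described here are 1214 of the 121336 open chromatin regions measured by ATAC-seq, an assay in which a transposase inserts adapters into accessible DNA, in sorted bone marrow cells of mice. They were chosen by measured values, and the criteria used all 12 libraries. Counts were divided by the library total to give counts per 1000000 (CPM), averaged within each group and raised by 0.25, and a region was kept when these values met 4 criteria. The ratio of WT-GMP to WT-LSK lay between 0.5 and 2, URE-LSK reached at least 1.5, the ratio of URE-LSK to WT-LSK was at least 2.5, and the ratio of URE-GMP to WT-GMP lay between 0.67 and 1.5. Of the 121336 regions, 80960 met the first criterion, 61378 the first and second, 4120 the first 3, and 1214 all 4. The criteria pick chromatin at a similar level in both cell types of WT mice that was more open in LSK, but not much more in GMP, of URE mice, and the members are called LSK-gain regions here.

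LSK are Lin- Sca-1+ c-Kit+ cells, the fraction that holds hematopoietic stem cells and early progenitors, and GMP are granulocyte-monocyte progenitors, Lin- Sca-1- c-Kit+ CD16/32+. The mice were WT, or UREd/d (URE), in which an enhancer of Spi1 called the upstream regulatory element is deleted in the germline (Spi1 encodes PU.1), so that every cell of the animal carries the deletion. WT and URE mice were young adult littermates on a C57BL/6 background, and URE mice were taken before overt leukemia. There were 3 libraries in each of the 4 groups, named by genotype and cell type from WT-LSK to URE-GMP, with total counts from 23072701 to 62204826 per library. The labels do not say whether LSK and GMP libraries of the same number came from 1 mouse. The p-values of the models therefore measure the spread between these libraries.

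PU.1 is an ETS family transcription factor that binds purine-rich sites and is required for monocytes, macrophages and B cells. RUNX1 is a DNA binding protein that acts with PU.1 at many blood cell enhancers, and GATA factors drive the erythroid, megakaryocyte and mast cell lineages. AP-1 is a family of dimers that are activated by growth and stress signals, and C/EBP factors drive granulocyte genes. Enhancers are stretches of DNA away from gene starts that such factors open, and an ATAC-seq count measures how open a region is, not which protein sits there.

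The central 300 bp of the 6 members with the largest URE-LSK to WT-LSK ratio are printed to show what these regions look like at the level of bases. All are on the plus strand of GRCm38. Capitals mark matches on either strand to the letters of RUNX factors (AACCACA), of AP-1 dimers (TGANTCA), of GATA factors (AGATAAG), of HOXA9 proteins (TGATTTA) and of NFI proteins (TTGGCA, 1 arm of their palindrome), the 5 motifs that were more frequent in LSK-gain regions than in all regions by the widest margins of percentage points. In the first window the match is to AP-1, in the second to RUNX and NFI, and in the third to RUNX at both places. The fourth window held a RUNX match and a pair of NFI matches, the fifth held none of the 5 motifs, and the sixth held a RUNX match.
chr12:106893613-106893912: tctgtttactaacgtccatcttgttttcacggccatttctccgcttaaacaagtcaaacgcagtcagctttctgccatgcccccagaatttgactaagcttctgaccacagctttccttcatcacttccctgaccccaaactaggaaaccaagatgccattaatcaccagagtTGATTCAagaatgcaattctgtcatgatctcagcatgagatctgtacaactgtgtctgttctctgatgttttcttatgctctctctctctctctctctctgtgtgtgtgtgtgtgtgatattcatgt
chr16:55085480-55085779: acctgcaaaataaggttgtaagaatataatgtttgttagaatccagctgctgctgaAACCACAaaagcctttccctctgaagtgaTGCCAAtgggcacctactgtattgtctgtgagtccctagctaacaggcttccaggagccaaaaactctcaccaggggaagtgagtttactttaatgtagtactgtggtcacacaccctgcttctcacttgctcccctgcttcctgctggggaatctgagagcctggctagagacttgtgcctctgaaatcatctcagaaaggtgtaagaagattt
chr11:57292347-57292646: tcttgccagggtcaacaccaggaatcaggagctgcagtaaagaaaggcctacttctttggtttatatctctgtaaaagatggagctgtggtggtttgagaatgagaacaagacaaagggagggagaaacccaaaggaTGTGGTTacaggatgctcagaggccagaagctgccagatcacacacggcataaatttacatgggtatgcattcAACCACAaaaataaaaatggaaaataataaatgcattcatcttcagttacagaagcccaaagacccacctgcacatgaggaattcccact
chr2:95800564-95800863: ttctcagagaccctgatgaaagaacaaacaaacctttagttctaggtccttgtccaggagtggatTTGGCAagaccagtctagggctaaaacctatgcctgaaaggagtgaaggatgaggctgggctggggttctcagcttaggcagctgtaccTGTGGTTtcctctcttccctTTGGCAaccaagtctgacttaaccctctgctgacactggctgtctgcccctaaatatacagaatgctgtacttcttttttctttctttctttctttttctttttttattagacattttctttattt
chr14:24384072-24384371: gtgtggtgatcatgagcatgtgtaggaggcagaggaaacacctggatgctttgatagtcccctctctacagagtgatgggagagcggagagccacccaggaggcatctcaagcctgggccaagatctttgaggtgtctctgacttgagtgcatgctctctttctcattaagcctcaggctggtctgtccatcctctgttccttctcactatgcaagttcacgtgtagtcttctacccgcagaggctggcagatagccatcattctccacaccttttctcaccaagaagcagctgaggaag
chr2:123324975-123325274: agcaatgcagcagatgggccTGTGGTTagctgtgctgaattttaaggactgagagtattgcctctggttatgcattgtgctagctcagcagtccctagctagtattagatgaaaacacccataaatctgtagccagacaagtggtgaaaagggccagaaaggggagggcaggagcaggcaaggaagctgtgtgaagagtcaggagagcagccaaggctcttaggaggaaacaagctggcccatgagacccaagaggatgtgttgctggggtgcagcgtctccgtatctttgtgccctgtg
The seventh, at chrX:116548832-116549131, held none of the 5 motifs, and the eighth, at chr10:99024301-99024600, held 1 RUNX match.

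LSK-gain regions were weakly open in WT cells and moderately open in URE-LSK. The median CPM over the 1214 members was 0.587, 0.477 and 0.648 in the WT-LSK libraries and 2.79, 2.32 and 2.93 in the URE-LSK libraries. It was 0.351, 0.328 and 0.485 in the WT-GMP libraries and 0.469, 0.418 and 0.591 in the URE-GMP libraries. The 3 URE-LSK libraries thus stood above the 9 others, and the GMP libraries of both genotypes overlapped, which the choice of members favours. The members held 0.551% ± 0.0645 (SD, n = 3) of all counts in URE-LSK, against 0.141% ± 0.0137 in WT-LSK. The GMP libraries held 0.146% ± 0.0276 of their counts there in URE and 0.123% ± 0.0295 in WT.

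**Figure D1:**
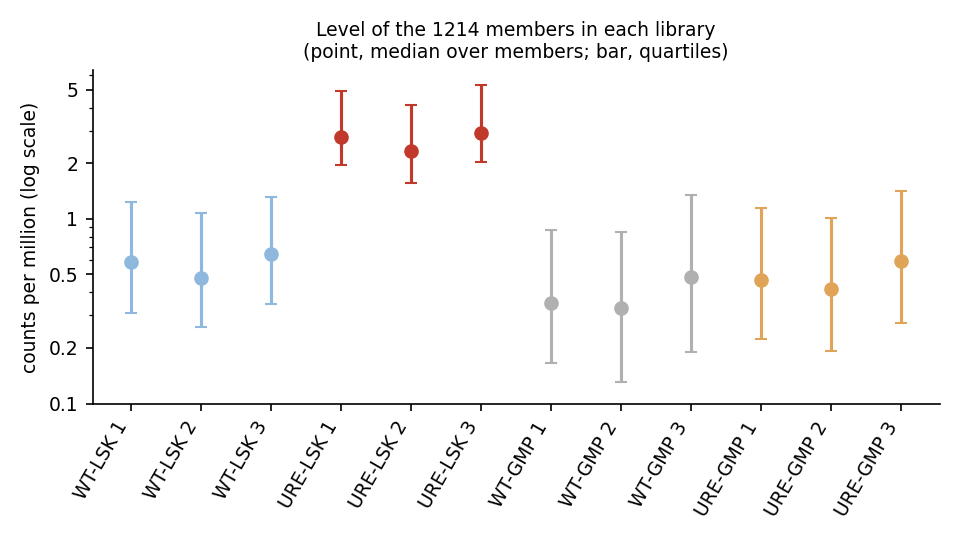
CPM (log scale) of the 1214 LSK-gain regions in each of the 12 libraries, with the median over members as a point and the quartiles as bars. The URE-LSK medians lie between 2.32 and 2.93, and the medians of the 9 other libraries between 0.328 and 0.648.

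All 3 URE-LSK libraries lay above all 3 WT-LSK libraries in 1212 of 1214 members, beside 28.1% of all regions, and above all 9 other libraries in 1172 (96.5%), beside 14.4% of all regions. In edgeR's quasi-likelihood fit to all regions, 1214 of 1214 members were called higher in URE-LSK (adjusted p under 0.05 and log2 fold change over 1), beside 13.6% of all regions, with a median log2 fold change of 2.25 and a range from 1.46 to 8.97. These counts describe the selection, since the criteria used the same libraries. The spread between libraries was wider in the members than in all regions. The median SD of log2(CPM + 0.25) over 3 libraries was 0.265 in URE-LSK and 0.29 in WT-LSK for members, against 0.198 and 0.179 for all regions. Among members with at least 5 CPM in URE-LSK it was 0.208 in URE-LSK, close to all regions, and 0.265 in WT-LSK.

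The GMP limits of the rule left some genotype difference in GMP. Without the 0.25 that the rule adds, the ratio of URE-GMP to WT-GMP was over 1.5 in 429 members, under 0.67 in 42 and within these limits in 738, while 5 members had no count in any WT-GMP library. It was over 2.5 in 98 members. With the 0.25 added the ratio was above 1 in 960 members and below 1 in 254, with a median of 1.2. The WT-GMP mean was itself under 0.25 CPM in 439 members (36.2%), where the added constant sets most of the ratio. All 3 URE-GMP libraries lay above all 3 WT-GMP libraries in 210 members, beside 27.5% of all regions, and below them in 10, beside 35.5%. The rule bounds the GMP ratio, so both counts are a description.

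In the fit, 85 members were called higher in URE-GMP and 1 lower, beside 15.6% of all regions called higher (together 86 members or 7.08%, beside 39.7% of all regions called either way), and those called higher went from a median of 0.0534 CPM in GMP of WT mice to 0.186 CPM in those of URE mice. The 86 became 54 without URE-GMP replicate 3, 39 without WT-GMP replicate 2 and 170 without WT-GMP replicate 3. With other scalings they were 226 (GC content offsets), 374 (loess offsets) and 51 (both library size only and TMM on promoter regions), 12 were called past a log2 fold change of 1 with glmTreat, and among the 311 members with a mean of at least 2 CPM edgeR and DESeq2 each called 0, while 51 had an unadjusted p under 0.05 in edgeR. The median log2 fold change of the members in GMP was 0.53, against 0.06 over all regions. The interaction, which subtracts the LSK genotype effect from the GMP one, was called negative in 710 members (58.5%), beside 5.03% of all regions. Without WT-GMP replicate 3 it was called in 414. For the other 504 members a difference between the genotype effects of the 2 cell types was not called, so "only in LSK" holds for them by the limits of the rule and not by this contrast. The size of the difference in CPM follows from the same limits and is given as a description. Its median was 2.12 CPM in LSK and 0.106 CPM in GMP, and the LSK difference was over 5 times the GMP difference in 1153 members.

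**Figure D2:**
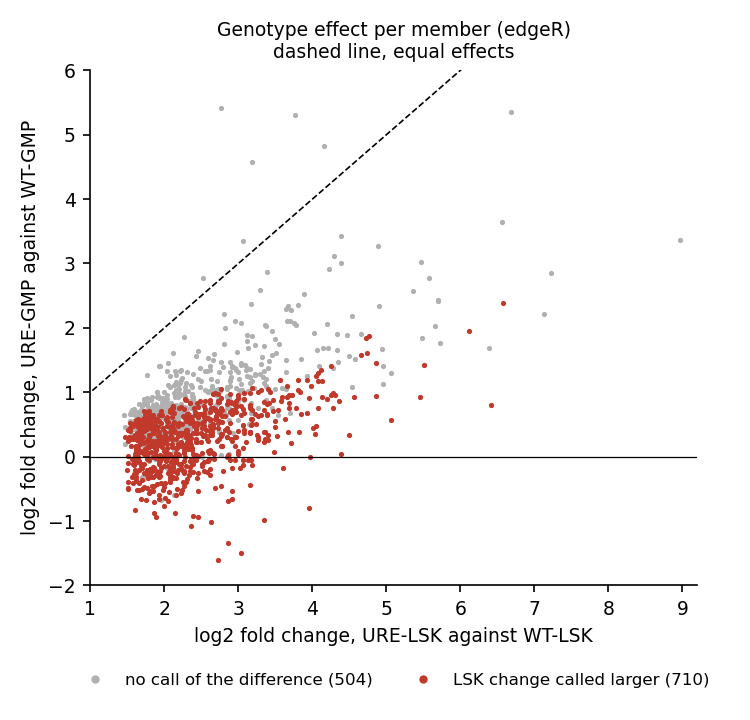
Log2 fold change of each LSK-gain region between URE and WT in LSK (horizontal axis) and in GMP (vertical axis), from edgeR, with the 710 members whose LSK change was called larger in red and the other 504 in grey. Nearly all points lie below the dashed line of equal effects, and more lie above 0 in GMP than below it.

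Within WT mice the members were close in both cell types by construction, but a part was called different. In WT-GMP against WT-LSK 30 members were called higher and 268 lower, together 298 (24.5%) beside 37.8% of all regions, and 195 without WT-GMP replicate 2. In URE mice 1126 members (92.8%) were called lower in URE-GMP than in URE-LSK, beside 21.6% of all regions, with a median log2 fold change of -2.42. The limits of the rule on both ratios largely set this count in advance.

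Many members were nearly closed outside URE-LSK. In 470 members (38.7%) the other 3 groups were all under 0.5 CPM, with medians of 0.283 in WT-LSK against 1.82 in URE-LSK, and in GMP of 0.122 in WT against 0.208 in URE. This group had a median width of 233 bp and held 81 of the 85 members called higher in URE-GMP, and the interaction was called in 36.2% of it. In 321 members the highest of the other groups lay between 0.5 and 1 CPM, and in 354 between 1 and 5 CPM. Only 69 members (5.68%) reached 5 CPM in another group, and these were 619 bp wide at the median, rose from 5.85 to 19.3 CPM in LSK, and had an interaction call in 84.1%. Depth limits the weakest members, since the median count per library was 115 in URE-LSK but 20 in WT-LSK, and for GMP it was 14 in WT and 25 in URE mice, and all 3 WT-GMP libraries held 3 counts or fewer in 96 members.

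The size of the LSK difference was also read in libraries that the rule had not used. Peaks had been called per group, so these libraries had still helped to define the regions. Each ratio rests on 1 library a group. The rule was applied to 8 libraries at a time, leaving out the replicate of one number in all 4 groups, and the regions found were then read in the left-out libraries. Without replicate 1 the rule found 1257 regions, and in replicate 1 their median ratio of URE-LSK to WT-LSK was 3.34, with 77.0% at 2.5 or more. Without replicate 2 it found 1238 regions, with a median ratio of 3.03 in replicate 2 and 68.4% at 2.5 or more. Without replicate 3 it found 1285 regions, with a median ratio of 3.28 in replicate 3 and 71.6% at 2.5 or more. Over all regions the median ratio was 0.961, 1.0 and 1.0, and the share at 2.5 or more was 5.93%, 5.78% and 7.54%.

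The ratio in the left-out libraries was above 1 in 100%, 99.8% and 99.5% of the regions found. The GMP criterion carried over less fully. The left-out URE-GMP to WT-GMP ratio stayed between 0.67 and 1.5 in 60.8%, 75.7% and 66.1% of the regions, with medians of 1.32, 1.2 and 1.23, while the medians over all regions were 0.989, 0.956 and 0.927. Of the regions found in this way, 927, 956 and 883 were among the 1214 members.

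**Figure D3:**
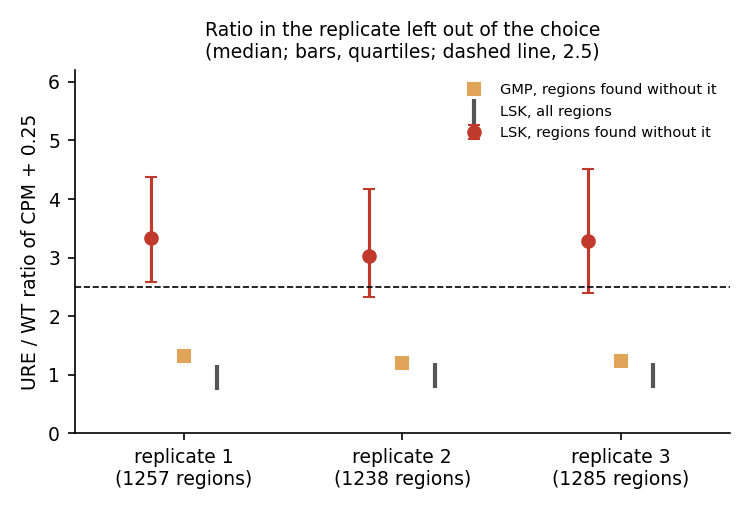
Ratio of URE to WT in the replicate that was left out when the rule was applied, for LSK (red points, median, with quartiles as bars), for GMP (squares, median) and for all regions in LSK (ticks, median). The red medians lie between 3.03 and 3.34, above the dashed line at 2.5, and the GMP medians between 1.2 and 1.32.

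The members with the largest ratio were regions that were almost without counts in every group but URE-LSK, and 7 of the 8 lay 90.7 kb or more from the nearest protein-coding start. The first, at chr12:106893587-106893939, lay between genes, 595 kb from the nearest start, that of 3110018I06Rik. It had 0.0559, 0.0 and 0.13 CPM in WT-LSK, and URE-LSK had 7.44, 4.62 and 6.11. In GMP it had 0.0, 0.0 and 0.237 CPM in WT, while URE had 0.184, 0.113 and 0.136. The ratio of the rule was 20.2, and every URE-LSK library stood far above the 9 others.

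The second, at chr16:55085475-55085784, lay 197 kb from the start of Zpld1. Its level was 0.28, 0.217 and 0.0216 CPM in WT-LSK and 7.26, 5.85 and 6.5 in URE-LSK. In GMP it was 0.0826, 0.0 and 0.0 CPM in WT and 0.122, 0.129 and 0.227 in URE, so the GMP libraries did not overlap either. The counting floor of 3 counts was 0.0482 to 0.13 CPM per library. WT-GMP held 2, 0 and 0 counts here, under that floor, and URE-GMP held 6, 8 and 10, above it. The third, at chr11:57292361-57292632, in an intron and with Fam114a2 as the nearest coding start at 226 kb, rose from 0.114 ± 0.132 CPM in WT-LSK to 5.28 ± 1.08 in URE-LSK (SD, n = 3), and the fourth, at chr2:95800603-95800824, 517 kb from Lrrc4c, from 0.0144 ± 0.0249 to 3.04 ± 0.669. The member at chr10:99024303-99024599 was the 1 of the 8 near a gene start, in an untranslated exon 9.26 kb from the start of Atp2b1, which encodes a calcium pump of the plasma membrane. It had 0.224, 0.303 and 0.432 CPM in WT-LSK against 5.92, 5.55 and 5.81 in URE-LSK. Of the 8 regions, 5 had an interaction call and 5 held a RUNX match. Those nearest to Zpld1, Fam114a2 and Lrrc4c were also called higher in URE-GMP, with log2 fold changes of 3.03, 2.57 and 2.85. So were the region at chrX:116548829-116549134 and that near Atp2b1, with 2.38 and 1.41. Their URE-GMP means were low, from 0.139 to 0.267 CPM.

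The members with the highest level in URE-LSK were already open in WT cells and differed by smaller ratios. The most open was an intronic region at chr4:155352415-155353017, 6.64 kb from a start of Prkcz, which encodes an atypical protein kinase C. Its level was 18.2, 12.7 and 12.1 CPM in WT-LSK, and URE-LSK had 43.1, 35.4 and 44.7. In GMP it was 8.17, 6.86 and 9.2 CPM in WT, while URE had 10.3, 8.94 and 13.7. The LSK genotypes were well apart and the GMP genotypes overlapped. In the fit the GMP log2 fold change of this region was 0.56, under the limit of 1 for a call.

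A region at chr10:118050057-118050832, 91.0 kb from the start of Mdm1, showed a like difference in LSK and lower values in GMP of URE mice. It had 11.4, 9.75 and 11.4 CPM in WT-LSK and 37.2, 38.1 and 39.2 in URE-LSK, against 8.13, 7.65 and 9.13 for GMP of WT mice and 5.71, 5.1 and 7.57 for GMP of URE mice. A region at chr1:128786844-128787635 had Cxcr4 as its nearest coding start, at 195 kb. Cxcr4 encodes the chemokine receptor that keeps stem cells in the marrow. The region had 13, 11 and 11.7 CPM in WT-LSK and 38.1, 30.5 and 39.5 in URE-LSK, and in GMP it was also higher in URE, with 19.7, 17.6 and 20.2 CPM against 14.7, 12.5 and 14.3.

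An intronic region at chr5:36597628-36598330, 4.35 kb from a start of Tbc1d14, whose product acts in membrane traffic to autophagosomes, rose from 7.47 ± 1.56 CPM in WT-LSK to 33.0 ± 6.84 in URE-LSK, while GMP of WT mice had 9.39 ± 5.45 and those of URE mice 7.48 ± 2.7 (SD, n = 3). Regions at chr17:45828262-45829049 (nearest start 1600014C23Rik, 94.4 kb), chr1:153634811-153635941 (Rgs8, 17.1 kb) and chr4:57797663-57798672 (in an intron, Akap2, 15.5 kb) reached 39.7, 35.1 and 33.8 CPM in URE-LSK from 13.7, 10.2 and 12.2 in WT-LSK. In GMP the chr17 region was also higher in URE, with 24.6, 25.6 and 32.4 CPM against 17.3, 20.6 and 23.8. The GMP genotypes overlapped in the Rgs8 and Akap2 regions. The interaction was called in 7 of these 8 regions, the exception being the Arrb1 promoter, and 1 of the 8 held a RUNX match. Levels of at least 10 CPM in URE-LSK were found in 112 members.

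Of the promoter members near protein-coding genes, the most open was at the start of Arrb1, the gene for beta-arrestin 1, a scaffold that switches off G protein-coupled receptors. This region, chr7:99594330-99595056, had 12.6, 11.3 and 17.9 CPM in WT-LSK and 36.7, 33.9 and 36.7 in URE-LSK. In GMP it had 4.54, 5.05 and 12.8 CPM in WT and 7.89, 4.61 and 11.3 in URE, with a wide spread in WT. A promoter region of Nrip1, a corepressor of nuclear receptors, at chr16:76323514-76324228, had 6.54, 8.1 and 7.94 CPM in WT-LSK and 18.7, 21.6 and 24.8 in URE-LSK. Promoter regions of Phc2, a Polycomb subunit, of Lor, which encodes a protein of the skin's cornified layer, of Ispd, which acts in the glycosylation of dystroglycan, and of Ica1 went from 2.51, 2.84, 2.55 and 1.58 CPM in WT-LSK to 7.24, 10.1, 6.8 and 4.97 in URE-LSK. In all 6 promoter regions each URE-LSK library lay above the 9 others, and 4 of the 6 had an interaction call.

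The sequence of the members was not used by the rule, and here they differed from the other regions in several motifs. Motif shares were counted in the central 300 bp, on both strands, and are given beside the same shares over all regions as a description with no test. The RUNX letters were present in 419 members, 34.5% (95% Wilson interval 31.9 to 37.2%, counting error only), against 14.4% of all regions. GATA was present in 9.31% against 4.25%, HOXA9 in 6.43% against 3.14%, AP-1 in 23.5% against 12.1%, and NFI in 25.2% against 16.6%. At least 1 of these 5 was present in 839 members (69.1%), against 41.2% of all regions.

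Other motifs were less frequent in the members. The PU.1 letters GAGGAAGT were present in 24 members, 1.98% (interval 1.33 to 2.92%), against 8.7% of all regions, and the letters CCGGAAGT of other ETS factors in 0.247% against 1.22%. The core of the CTCF site, AGGGGGC, was present in 2.64% against 7.95%, and the C/EBP letters TTGCNNAA in 12.2% against 16.4%. Of 22 motifs searched, 9 had a higher share in the members and 13 a lower one. Among the remaining motifs were MYB (CNGTTA) with 30.6% against 28.1%, TCF/LEF (TCAAAG) with 19.4% against 17.9%, the E-box CAGCTG with 18.9% against 20.5%, MEF2 (CTATTTA) with 3.71% against 2.72%, and NRF/MAF (TGCTGAGTC, which shares letters with AP-1) with 2.06% against 1.24%. The shares of the others, which were IRF (GAAANTGAA), ZEB/SNAI (CAGGTG), KLF (CCACACCC), T-box (AGGTGTGA), STAT (TTCCNGGAA), NF-kB (GGGANTTCC), CRE (TGACGTCA) and EGR (GCGTGGGCG), lay between 0.0% and 17.5% in the members and between 0.237% and 19.2% in all regions.

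The members lay at promoters less often than all regions, so the shares were also counted outside promoters. There RUNX was present in 35.4% of the 1144 members and 16.1% of the 98416 regions, AP-1 in 23.7% and 13.4%, GATA in 9.53% and 4.77%, and PU.1 in 1.84% and 9.62%. These shares stayed near those with promoters included. Some other gaps narrowed outside promoters. Other ETS was present in 0.262% of members and 0.649% of regions, CRE in 0.437% and 0.436%, MYB in 30.8% and 30.2%, and TCF/LEF in 19.6% and 19.4%. The median GC content was 47.4% in members and 48.7% in all regions outside promoters, and 47.5% and 49.8% with promoters, and no share was adjusted for it.

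The motifs of the LSK-gain regions were set beside those of 3 other sets cut from the same WT-alike regions with mirrored limits. RUNX was present in 15.4% of 1808 regions gained only in GMP, 28.9% of 1299 regions gained in both cell types, and 17.7% of 993 regions lost only in LSK. AP-1 was present in 13.1%, 23.2% and 10.4% of these sets. GATA was present in 3.76%, 3.85% and 4.33%, against 4.25% of all regions, and HOXA9 in 2.1%, 2.62% and 2.72%, against 3.14%. The C/EBP letters were present in 35.0% of the regions gained only in GMP and 28.6% of those lost only in LSK, against 12.2% in the LSK-gain regions. The PU.1 letters were present in 27.1% of the regions lost only in LSK but in 2.1% and 1.92% of both other gained sets, so the low share was common to all 3 gained sets. The CTCF core was present in 3.93%, 4.31% and 5.04% of the 3 other sets, and other ETS in 0.277%, 0.462% and 0.302%. All of these were under the shares of all regions, 7.95% and 1.22%, so these low shares were not particular to the LSK-gain regions. NFI was present in 18.1%, 19.8% and 20.1%, against 25.2% in the LSK-gain regions and 16.6% of all regions. Differences between these sets were not tested.

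**Figure D4:**
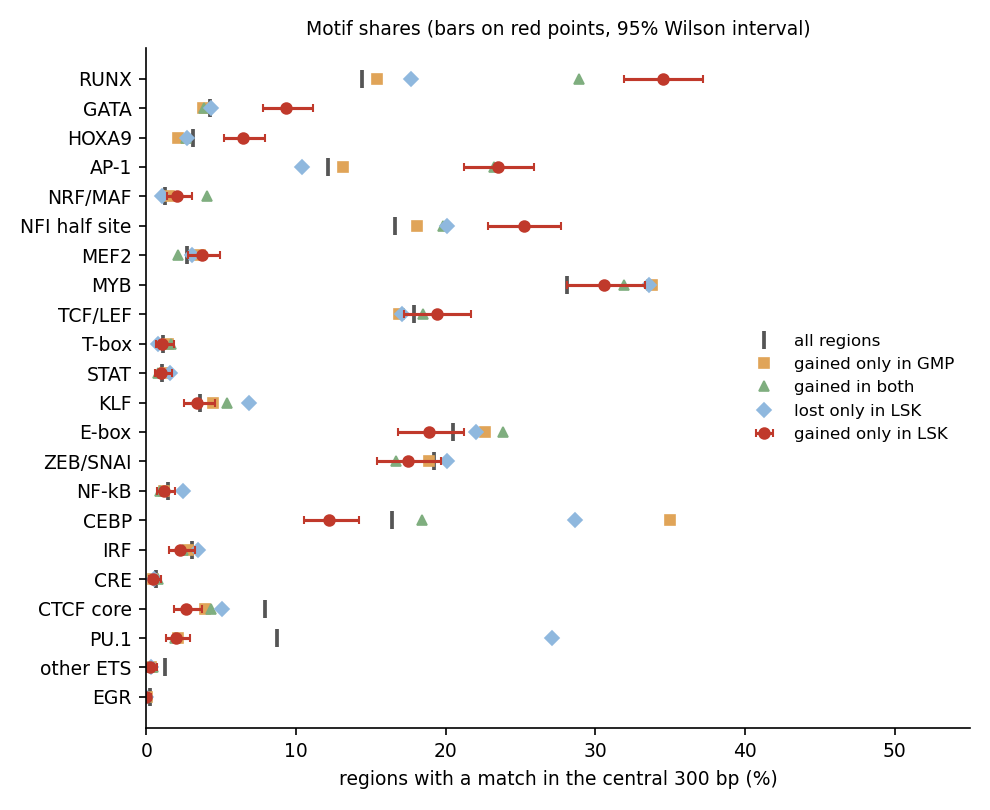
Share of regions with a match to each of 22 motifs in the central 300 bp, in percent, for the 1214 LSK-gain regions (red points with 95% Wilson intervals), the 3 sets with mirrored limits and all 121336 regions (ticks). The red points lie farthest to the right of the ticks for RUNX (34.5% against 14.4%) and AP-1 (23.5% against 12.1%), and to the left for PU.1 (1.98% against 8.7%) and CTCF (2.64% against 7.95%).

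RUNX matches lay near the middle of the members. Of 481 matches in the members 62.4% were within 50 bp of the midpoint, against 50.3% of the 19294 matches in all regions, where an even spread would give 33.3%. The AP-1 matches were within 50 bp in 52.9% against 43.4%, and the GATA matches in 49.6% against 37.0%. A pair or more of RUNX matches was found in 58 members (4.78%), against 1.32% of all regions.

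The other motifs were set out by whether a member held RUNX. AP-1 was present in 19.1% of the members with RUNX and 25.8% of those without, GATA in 8.11% and 9.94%, HOXA9 in 6.21% and 6.54%, and NFI in 27.7% and 23.9%. RUNX and NFI together were present in 116 members, and RUNX and AP-1 together in 80.

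**Figure D5:**
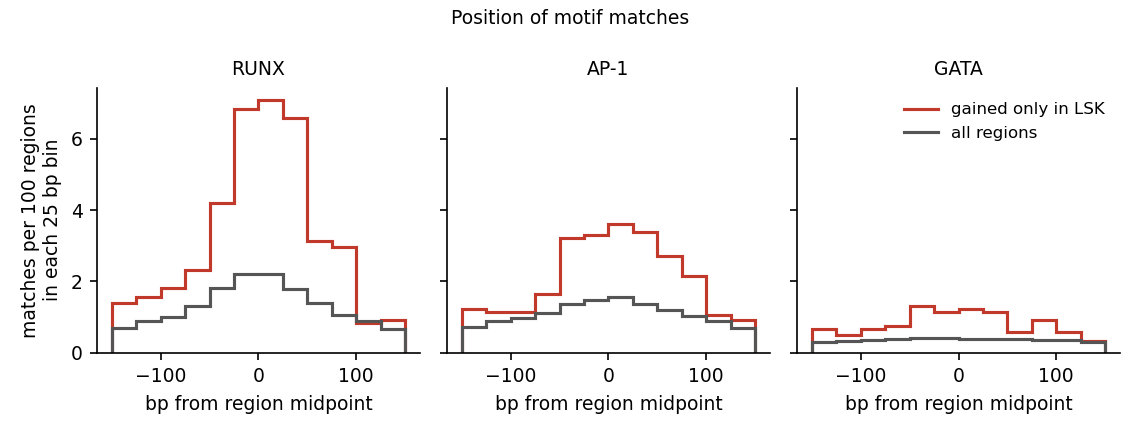
Number of RUNX, AP-1 and GATA matches per 100 regions in bins of 25 bp, by distance in bp from the region midpoint, for LSK-gain regions (red) and all regions (grey). The red lines peak around the midpoint, where 62.4% of the RUNX matches of the members lie within 50 bp.

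The RUNX share did not follow the size of the gain within the members. It was 34.7% in the 403 members with a ratio from 2.5 to 3, 33.6% in the 625 with a ratio from 3 to 5 and 36.2% in the 177 with a ratio from 5 to 10. Of the 9 with a ratio of 10 or more, 5 held a match. Members with RUNX had a median log2 fold change of 2.29 in LSK and 0.52 in GMP, and those without had 2.23 and 0.54. The 113 members with GATA were somewhat more open, at a median of 3.43 CPM in URE-LSK against 2.65 without it, and the interaction was called in 69.9% against 57.3% of them. Among the 69 members that reached 5 CPM in another group RUNX was present in 27.5%.

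The LSK-gain regions were mostly distal. Of the 1214 members 604 (49.8%) lay in introns and 481 (39.6%) between genes, against 43.6% and 32.4% of all regions. At promoters, within 500 bp of a start site, lay 70 members (5.77%), against 18.9% of all regions, 7.52% of the regions gained only in GMP, 6.77% of those gained in both and 9.97% of those lost only in LSK. The median distance to the nearest protein-coding start was 35009 bp, against 15396 bp for all regions, 22777 bp for regions gained only in GMP and 34356 bp for those gained in both. In 491 members (40.4%) this distance was over 50 kb, against 24.1% of all regions. The members were narrow, at a median width of 269 bp against 322 bp, and 9.15% of their bases were repeat-masked at the median against 9.17%.

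They were spread over the genome. All chromosomes except Y held members, from 0.706% of the regions of chromosome 19 to 1.33% of those of chromosome 13, against 1.0% overall. The median distance to the nearest other member was 432766 bp, and 58 members had another within 10 kb and 239 within 100 kb. The nearest protein-coding start belonged to 1064 different genes, of which 947 were nearest to 1 member, 97 to 2 and 20 to 3 or more.

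The gene with the most members was Auts2, a very long gene whose product acts with Polycomb proteins and is known for its part in brain development. Of 55 regions with Auts2 as the nearest gene 9 were members, from chr5:131515768-131516050 to chr5:132654089-132654296, with 7 of them in introns, 1 in a non-coding exon and 1 between genes. The most open, at chr5:132229679-132229982, had 1.54, 1.17 and 1.73 CPM in WT-LSK and 5.4, 4.62 and 6.05 in URE-LSK, against 0.784, 0.59 and 1.06 for GMP of WT mice and 0.571, 0.772 and 0.864 for GMP of URE mice. The other 8 had means from 1.48 to 2.9 CPM in URE-LSK and from 0.0981 to 0.736 in WT-LSK. At chr5:132654089-132654296 URE-LSK had 0.907, 1.04 and 2.49 CPM and overlapped URE-GMP, with 0.53, 0.418 and 0.932.

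The next cluster, 5 members with Adam6a as the nearest protein-coding start at 374 to 789 kb, lay among variable segments of the immunoglobulin heavy chain, from chr12:113917526-113917810 to chr12:114332645-114332844. They were 5 of the 53 regions with Adam6a as the nearest gene. The segments nearest to them in the annotation were Ighv7-2, Ighv4-1, Ighv9-2 and Ighv8-1. These segments are joined to D and J segments in developing B cells. Their most open member, at chr12:113943965-113944280, had 2.66, 2.43 and 5.22 CPM in WT-LSK and 10, 10.1 and 7.24 in URE-LSK, and the member beside Ighv7-2 at chr12:113918690-113919017 had 1.31, 1.21 and 1.64 against 6.33, 6.04 and 6.09. Variable segments resemble each other, so reads could be shared among them.

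Next came 5 genes with 4 members each. They were Pik3r1, which encodes the main regulatory subunit of PI3 kinase, Pde4d, a phosphodiesterase that breaks down cAMP, Svil, which encodes an actin-binding protein, Otud7a, a deubiquitinase gene, and Cnih3. The regions with each as the nearest gene numbered 82 for Pik3r1, 139 for Pde4d, 50 for Svil, 17 for Otud7a and 30 for Cnih3. At Cnih3 an intronic region at chr1:181406242-181406860 rose from 6.33 ± 0.886 CPM in WT-LSK to 20.6 ± 1.43 in URE-LSK, and for GMP it was 6.59 ± 1.03 in WT and 9.16 ± 1.86 in URE mice (SD, n = 3). At Otud7a all 4 members were under 0.5 CPM in each other group. The one at chr7:63639783-63640212 had 0.0839, 0.0433 and 0.0432 CPM in WT-LSK and 2.79, 1.12 and 3.66 in URE-LSK. At Pde4d the member at chr13:109159382-109159722 had 0.14, 0.13 and 0.259 CPM in WT-LSK and 3.31, 2.46 and 2.95 in URE-LSK, and at Pik3r1 the member at chr13:102135271-102135524 had 0.336, 0.303 and 0.561 against 3.15, 2.49 and 3.42.

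Genes of blood lineages and of the pathways named in the study were about as frequent near the members as near all regions. A gene of 13 such lists was the nearest coding start for 43 members (3.54%), against 3.74% of all regions. The largest share was that of transcription factors of blood, with 14 members (1.15%) against 1.06%, and then that of megakaryocyte and platelet genes, with 8 members (0.659%) at Cd9, F2r, Thbs1 and Zfpm1 against 0.237%. B lineage genes had 6 members (0.494%) at Bach2, Ebf1, Foxo1 and Lef1 against 0.195%, and T and innate lymphoid genes 6, among them members at Bcl11b, Gata3 and Runx3, against 0.436%. Neutrophil granule genes had 0 members, against 0.155% of all regions. With any start site within 50 kb counted in place of the nearest, transcription factors of blood had 0.329% against 0.665% of all regions, B lineage genes 0.165% against 0.245%, T and innate lymphoid genes 0.412% against 0.417% and erythroid genes 0.0824% against 0.239%, so these 4 shares turned from above to below all regions. Megakaryocyte and platelet genes had 0.494% against 0.321%.

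The autophagy and lysosome list had 2 members (0.165%), at Ambra1 and Atg4c, against 0.251% of all regions. Stem cell regulators had 4 members (0.329%) against 0.48% of all regions, and integrins and other adhesion genes 4 (0.329%) against 0.448%. Cytokine receptors had 2 (0.165%) against 0.405%, and monocyte, macrophage and dendritic genes 2 (0.165%) against 0.317%. Apoptosis and survival genes had 1 (0.0824%) against 0.213%, mast cell and basophil genes 1 (0.0824%) against 0.153%, and the erythroid list 3 (0.247%), all at Zfpm1, against 0.183%. The 4 signatures that the study drew from its own single-cell RNA-seq held the nearest gene of 1.89%, 2.31%, 3.71% and 5.52% of the members, against 2.51%, 3.44%, 3.42% and 6.05% of all regions. With any start site within 50 kb the shares were 1.48%, 3.62%, 3.05% and 4.2%, against 3.27%, 5.95%, 4.0% and 7.56%. Signature 3 thus turned from above to below all regions. The fold of enrichment of a list was not tested.

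Near these genes, the most open B lineage member was at chr4:32179668-32180098, 58.7 kb from the start of Bach2, a repressor that acts in B and T cells. It had 2.82, 2.04 and 2.27 CPM in WT-LSK and 13.4, 12.2 and 11.7 in URE-LSK, against 4.29, 4.17 and 3.36 for GMP of WT mice and 3.59, 4.95 and 4.16 for GMP of URE mice. URE-LSK stood apart and the GMP genotypes overlapped. Zfpm1 encodes FOG-1, the cofactor of GATA factors in megakaryocytes and erythroid cells. Its intronic member at chr8:122319314-122320137 had 4.47, 3.9 and 5.55 CPM in WT-LSK and 16.5, 11.8 and 16.4 in URE-LSK, against 2.52, 1.81 and 3.0 for GMP of WT mice and 3.89, 2.35 and 4.34 for GMP of URE mice. Its central 300 bp held RUNX, GATA and NFI matches.

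Slamf1 encodes CD150, a surface marker of stem cells. Its intronic member at chr1:171789437-171789717 had 0.643, 0.823 and 1.32 CPM in WT-LSK and 5.01, 3.94 and 4.29 in URE-LSK. Ambra1 encodes a regulator of autophagy, and its intronic member at chr2:91835043-91835499 had 4.78, 3.12 and 4.53 CPM in WT-LSK and 14.3, 12.4 and 15.8 in URE-LSK. Bbc3 encodes the apoptosis activator PUMA, and a member in a coding exon at chr7:16330476-16330837, 20 kb from its start, had 0.14, 0.52 and 0.432 CPM in WT-LSK and 3.43, 2.32 and 3.68 in URE-LSK. In each of these 3 regions the LSK genotypes did not overlap, while the GMP genotypes did. The interaction was called for the Ambra1 and Bbc3 regions but not for the Slamf1 region.

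The other regions named by list rose between the LSK groups in the same way. A member near Gzmb, which encodes granzyme B, went from 1.09 to 5.42 CPM, and one near Cd44, an adhesion receptor, from 1.46 to 5.08. A member whose nearest start was that of Tnfrsf1b, a TNF receptor, went from 1.61 to 5.45 CPM, and one 938 kb from Zeb2, a transcription factor of monocytes and dendritic cells, from 0.758 to 2.33. In GMP the Cd44 region was also higher in URE, with 2.83, 2.64 and 3.11 CPM against 2.19, 1.66 and 2.44 in WT. The GMP genotypes overlapped in the regions near Gzmb, Tnfrsf1b and Zeb2.

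The limit of 2.5 did not mark a step in the values. The 2 members just inside it, at chr14:77617378-77617613 and chr7:46559647-46560372, had 0.618 and 7.55 CPM in WT-LSK and 1.92 and 19.3 in URE-LSK. The 2 regions just outside it, at chr11:83537148-83537377 and chr4:43277269-43277471, had 0.642 and 0.525 CPM in WT-LSK and 1.98 and 1.69 in URE-LSK.

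The cell labels were read against promoter regions of marker genes. Promoters of 7 GMP markers summed to 421 to 542 CPM in WT-GMP and 648 to 727 in URE-GMP, against 72.0 to 82.4 in WT-LSK and 57.4 to 118 in URE-LSK, where replicate 3 held the 118. Promoters of 9 LSK markers summed to 379 to 388 CPM in WT-LSK against 365 to 390 in URE-LSK, and for GMP to 283 to 318 in WT against 247 to 260 in URE. Promoters of 6 T and innate lymphoid markers summed to 98.1 to 112 CPM in WT-LSK and 128 to 134 in URE-LSK, and were also higher in GMP of URE mice, at 105 to 110 CPM against 78.3 to 88.7. Those of 5 megakaryocyte markers summed to 66.7 to 91.7 CPM in WT-LSK and 89.7 to 92.9 in URE-LSK, those of 3 mast cell and basophil markers to 54.1 to 67.2 and 75.6 to 77.9, those of 3 B cell markers to 27.0 to 30.0 and 31.4 to 31.9, and those of 4 erythroid markers to 23 to 28.2 and 25.2 to 28.0. No promoter of a marker gene was a member. Whether a change in the mixture of cells within the LSK gate had a part in the gained regions was not tested, and in sorted cells in bulk a larger share of cells with an open region and more opening per cell cannot be told apart.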

How the data were processed

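ATAC-seq of sorted LSK and GMP cells was available as 1 table of raw counts, a whole number per region and library, deposited by the authors without normalization. Per the submitters' processing notes, cutadapt, Bowtie2, Genrich, bedtools and featureCounts were used with the genome GRCm38, and per the study's methods duplicates were removed and peaks were called per group. Counting of fragments as against single read ends is not given in the sources used here. Region starts were taken as counted from 0 and are printed counted from 1. Groups and replicate numbers came from the labels, and all 12 columns were used.

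CPM are counts over the library total times 1000000. Counts were fitted with edgeR 4.0.16 in R 4.3.3 (TMM, quasi-likelihood, 1 coefficient per group, all 121336 regions, Benjamini-Hochberg adjustment, two-sided), and a region was called at an adjusted p under 0.05 and an absolute log2 fold change over 1. Genes came from GENCODE M21, and sequence from GRCm38. Intervals and floors cover counting error only. Regions named in the text were the 8 with the largest LSK ratio, the 8 with the highest URE-LSK level, up to 6 promoter members, the most open member for each gene list, the members of the genes with the most members (5 genes tied in the third place), and 2 on each side of the gain limit. The region named for 1 list is not reported here. Members, lists and this rule were chosen with earlier results of these data known.

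Same-numbered libraries were checked for pairing by the correlation of their deviations from the group means over regions. It was 0.181, 0.191 and 0.207 between LSK and GMP of WT mice, above the criterion of 0.1 in every pair, and was under 0.1 in at least 1 pair of every other comparison. Between GMP of WT and of URE mice it was 0.0997, 0.205 and 0.349, so that only replicate 1 fell just under the criterion. The replicate block was therefore an alternative. The other alternatives were DESeq2 1.42.0, other scalings, filters and thresholds, other forms of the rule, other motif windows and leaving out each library.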

Additional observations from a re-analysis of the deposited data

Results flagged for a closer look

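By edgeR's test of the interaction itself, the genotype effect was called lower in GMP than in LSK in 710 of 1214 LSK-gain regions. This was 58.5% of the members, beside 5.03% of all regions. Only calls in this direction were counted. The criteria for members demanded a gain in LSK and a limited change in GMP, so this count follows from the choice of members in these same libraries. Groups of 3 libraries were not tested for outlying samples. URE-LSK replicate 3 had a summed 118 CPM at promoters of GMP markers, against 63.5 and 57.4 in the other URE-LSK libraries, and without it the count was 566. Without WT-GMP replicate 3 the count was 414.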

How the results depend on the processing

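The rule gave 1214 members, and 1343 with CPM after TMM, 1336 after RLE size factors, 1785 after GC content offsets, 1111 with a pseudocount of 1 and 725 with a pseudocount of 0, of which 1069, 976, 820, 427 and 541 were among the 1214, so membership depended strongly on the constant added. With the level limit applied before the constant was added, a form chosen after seeing the data, there were 1118. Leaving out each library gave 970 to 1465. The RUNX share was 34.5%, and 30.6% and 38.2% in windows of 200 and 500 bp, where all regions held it in 11.6% and 18.6%. It was 34.9%, 33.8%, 33.7% and 31.7% in members chosen with pseudocounts of 0 and 1, with the median per group and after GC content offsets, added after seeing the data, and 32.8% to 35.2% without each library. The share at promoters was 8.81% within 1000 bp, and 27 members had a listed gene within 50 kb in place of 43 by the nearest start.

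Members called in GMP (86) numbered 226 with GC content offsets, 374 with loess offsets, 51 with library size only and with TMM on promoter regions, 175 with no fold change threshold and 12 with glmTreat. Without each library they numbered 39 to 170. With a mean CPM of at least 2, 311 members were left, of which 311 were called higher in URE-LSK, 0 by edgeR in GMP (51 at an unadjusted p under 0.05, and 0 by DESeq2), 17 in WT-GMP against WT-LSK, 252 lower in URE-GMP than URE-LSK and 259 with a negative interaction. The limits of the rule on the GMP ratio largely set the 0 in advance. With glmTreat 39 were called between the WT cell types and 128 had a negative interaction call. Without each library the members called were 1213 to 1214 in LSK, 195 to 403 between the WT cell types, 1097 to 1142 lower in URE-GMP than URE-LSK, and 414 to 761 with a negative interaction. With the replicate block 91 were called in GMP and 804 had a negative interaction call, and with the replicate block and GC content offsets 249 were called in GMP; the block moved no count by over 1.5 times by itself. The median log2 fold change of all regions in LSK ran from -0.06 (TMM on promoter regions) to 0.3 (GC content offsets), with 0.14 as reported, and that of the members from 2.06 to 2.88. Where a count moved, the cause was not tested beyond the smaller number of regions or the higher threshold that a setting leaves. Most members were weak in GMP, so depth limits what can be said of their GMP change.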
